A study of Homo sapiens with 10 samples.

Results

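The 10 genes described here make, break down or control the polyamines putrescine, spermidine and spermine: ODC1, SRM, SMS, AMD1, SAT1, AZIN1, OAZ1, OAZ2, MAT2A and MTAP. They were taken by name from 19866 protein-coding genes of GRCh38.p14, and all 10 were found in the annotation. A MYC summit, the highest point of a peak, was counted for a gene if it lay inside the gene or within 5 kb of either end. The summits come from U2OS cells, a human osteosarcoma line, that lack their own MYC gene (MYC knockout). FLAG-tagged MYC had been put back under doxycycline control, as the wild type (WT) or as a mutant named 3A or 7A. The labels do not say which residues the mutants change or whether each line is 1 clone. Bound DNA was recovered with a FLAG antibody after 24 h with 1 µg/mL doxycycline, and mouse NIH3T3 cells were mixed in at 10% as a reference genome.

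The induced WT, 3A and 7A immunoprecipitates (IPs) had 2 libraries each. Uninduced WT IPs had 2 libraries, and the induced and uninduced WT inputs had 1 each; these 4 libraries carry the same knockout and have no peak list used here. The data are 3 deposited peak lists, 1 per induced protein, with 4749 WT, 845 3A and 64 7A peaks. With 1 list per protein there is no spread between replicates and no test between proteins. A gene without a summit had no peak past the authors' threshold there, which is not a measurement of zero binding. Peak lists hold no expression values, so the identity of the cells was not checked.

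Polyamines are small positively charged molecules that bind nucleic acids and are needed by growing cells. Ornithine decarboxylase (ODC1) makes putrescine, and spermidine synthase (SRM) and spermine synthase (SMS) extend it with aminopropyl groups. Those groups come from S-adenosylmethionine, which MAT2A makes and AMD1 decarboxylates, and MTAP recycles the by-product to methionine. Antizymes (OAZ1, OAZ2) send ODC1 protein for degradation, the antizyme inhibitor AZIN1 relieves this, and SAT1 acetylates polyamines for export or oxidation. ODC1 is a textbook MYC target. MYC with its partner MAX prefers the E-box CACGTG.

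The promoter sequences are shown first because the ODC1 and SRM summits lay in or beside the letters in capitals. They come from RefSeq (GRCh38.p14), are written in the direction of transcription, and carry every CACGTG in capitals. The ODC1 stretch, chr2:10447992-10448071 on the minus strand, runs from 59 bases before the inner of 2 annotated starts to 21 bases from that start on. It was cut around the CACGTG copies of the promoter window that holds the WT and 3A summits, so it holds those copies by choice. The other stretches are the 250 bases before the start. SRM, chr1:11060019-11060268 on the minus strand, holds the WT summit. MAT2A, chr2:85538918-85539167 on the plus strand, lies within the WT peak of highest fold among these genes. OAZ1, chr19:2269236-2269485 on the plus strand, is shown as a GC-rich promoter without a peak.
ODC1: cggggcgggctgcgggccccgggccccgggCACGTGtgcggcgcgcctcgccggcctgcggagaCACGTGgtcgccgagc
SRM: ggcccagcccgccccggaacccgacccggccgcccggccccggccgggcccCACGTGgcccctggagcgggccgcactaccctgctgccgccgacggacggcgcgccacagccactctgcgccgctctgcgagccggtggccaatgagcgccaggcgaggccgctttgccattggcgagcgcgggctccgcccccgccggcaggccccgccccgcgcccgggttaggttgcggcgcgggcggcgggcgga
MAT2A: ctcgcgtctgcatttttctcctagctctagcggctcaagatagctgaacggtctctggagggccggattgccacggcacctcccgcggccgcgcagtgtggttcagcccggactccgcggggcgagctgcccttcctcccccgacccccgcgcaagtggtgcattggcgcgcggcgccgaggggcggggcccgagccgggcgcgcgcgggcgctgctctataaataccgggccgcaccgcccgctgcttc
OAZ1: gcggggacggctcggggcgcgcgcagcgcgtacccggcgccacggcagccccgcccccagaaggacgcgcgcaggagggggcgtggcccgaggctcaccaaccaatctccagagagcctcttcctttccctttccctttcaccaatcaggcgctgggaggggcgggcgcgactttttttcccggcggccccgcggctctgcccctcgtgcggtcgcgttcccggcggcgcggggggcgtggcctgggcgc

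WT MYC had a summit at 6 of the 10 genes, and each of the 6 had a single summit. They were ODC1, SRM, AMD1, AZIN1, MAT2A and MTAP. SMS, SAT1, OAZ1 and OAZ2 had no summit in any list. The share of 60.0% stands beside 24.0% of all protein-coding genes with a WT summit under the same rule. Those genes were not matched to the 10 for expression or promoter composition. 3A had a summit at 1 of the 10 genes, ODC1, where 4.85% of all genes had one. 7A had none, where 0.227% of all genes had one, so its count of 0 among 10 genes is near the background. By role, WT summits were at the enzymes that make putrescine and spermidine and supply the aminopropyl donor, at the salvage enzyme and at the antizyme inhibitor. They were at neither antizyme, and not at the gene for the last step to spermine or the acetyltransferase gene. Lacking a WT summit is the more common state over all genes, of which 24.0% had one.

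**Figure D1:**
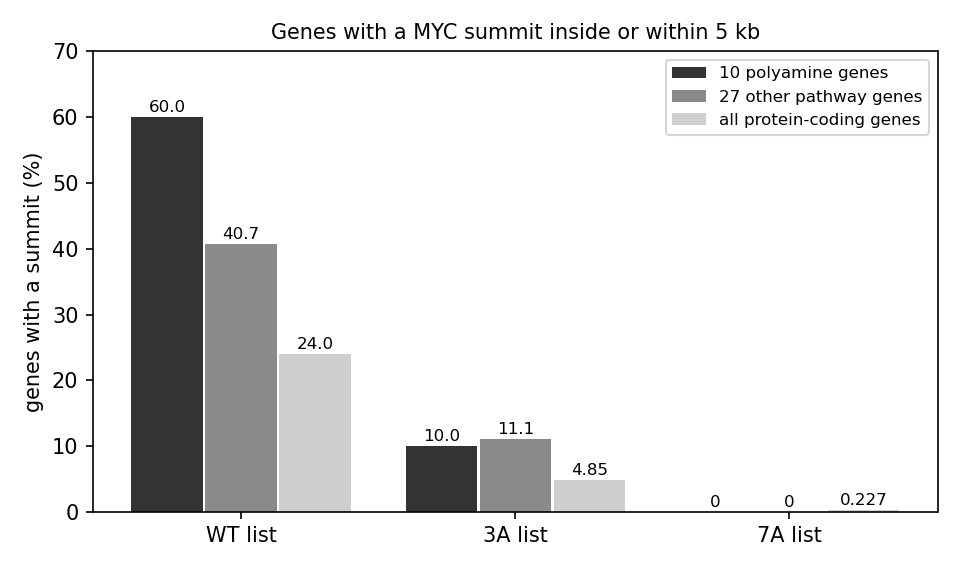
Share of genes (vertical axis, percent) with a summit inside the gene or within 5 kb of its ends, for each peak list (horizontal axis); bars stand for the 10 polyamine genes, 27 other pathway genes and all 19866 protein-coding genes. The WT bars fall from 60.0% to 40.7% to 24.0%, and the 7A bars are at 0, 0 and 0.227%.

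ODC1, at chromosome 2, 10439968 to 10448327, was the only one of the 10 genes with a peak in both the WT and the 3A list. The WT peak (chr2:10447578-10449369) had a fold enrichment of 12.8. Fold enrichment here is the authors' ratio of IP signal to local background at the summit, and it ranks peaks within 1 list only. That fold ranked 128 of 4749, above 97.3% of the WT list. The 3A peak (chr2:10447760-10448289) had a fold of 3.02, rank 578 of 845, and was above 31.6% of its own list. The ODC1 peak was thus among the strongest of the WT list and below the median of 3.41 of the 3A list.

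Both ODC1 summits were at the same place. They were 2 bp apart, 29 bp (WT) and 27 bp (3A) upstream of the inner annotated start, inside the gene by 286 and 288 bp. Both fell within the first CACGTG of the ODC1 stretch shown above, at chromosome 2, 10448036 to 10448041. The other CACGTG, at 10448002 to 10448007, was 34 bp from the WT summit and 32 bp from the 3A summit. The 3A peak was 530 bp wide and lay inside the WT peak, which was 1792 bp wide.

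The depth behind these peaks was recovered from the fold and the p-value, as the number of IP fragments stacked at the summit and the local background expected there. At ODC1 the WT list gave 259 fragments (exact Poisson 95% interval 228 to 293) over a background of 19.3. The 3A list gave 69 fragments (53.7 to 87.3) over a background of 22.2. Total reads per library and the spike-in scaling are not known here, so the counts are given side by side and not compared as amounts of binding. The intervals cover counting error only.

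MAT2A, which makes S-adenosylmethionine, had the highest WT fold of the 10 genes, 13.0, at rank 122. Its summit was 634 bp downstream of its single annotated start, inside the gene (chromosome 2, 85539168 to 85545281). The peak (chr2:85537895-85540354) was 2460 bp wide, wider than 99.4% of WT peaks, and rested on 269 fragments (exact Poisson 95% interval 238 to 303) over a background of 19.8. No 3A peak overlapped it, and the nearest 3A summit was 227165 bp away. MAT2A and ODC1 therefore had nearly the same WT fold, pileup and background, and differed in whether the 3A list held a peak.

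SRM, the spermidine synthase gene (chromosome 1, 11054589 to 11060018), had a WT fold of 11.3 at rank 214. The summit was 217 bp upstream of its start, and the peak (chr1:11059129-11060677) was 1549 bp wide. It rested on 102 fragments (exact Poisson 95% interval 83.2 to 124) over a background of 8.13, a lower background than at ODC1 or MAT2A. The single CACGTG of the SRM stretch shown above, at chromosome 1, 11060212 to 11060217, was 18 bp from the summit. The nearest 3A summit was 41698 bp from the gene.

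Peaks of WT fold this high often had a 3A counterpart. Of the 122 WT peaks at or above the MAT2A fold, 64 (52.5%) overlapped a 3A peak by at least 1 bp, and of the 214 at or above the SRM fold, 102 (47.7%) did. MAT2A and SRM were not among them. Over all WT peaks the share was 15.1%. Counted by gene, 1 of the 6 WT-bound polyamine genes (16.7%) also had a 3A summit, against 18.6% of all 4760 WT-bound genes (884), so the share among the polyamine genes is near the background.

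The other 3 bound genes had peaks nearer the middle of the WT list, whose median fold was 5.14. MTAP, the salvage enzyme gene (chromosome 9, 21802636 to 21941115), had a fold of 6.14 with the summit 210 bp downstream of its start. Its peak (chr9:21802462-21803490) rested on 55 fragments (exact Poisson 95% interval 41.4 to 71.6) over a background of 8.13. AZIN1, the antizyme inhibitor gene (chromosome 8, 102826302 to 102864200), had a fold of 5.84 with the summit 302 bp outside the gene. That peak (chr8:102863892-102865009) rested on 98 fragments (exact Poisson 95% interval 79.6 to 119) over a background of 15.9. AZIN1 and MTAP differed in pileup by more than in fold, since their backgrounds differed.

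AMD1, which encodes the decarboxylase that makes the aminopropyl donor (chromosome 6, 110814617 to 110895713), had the lowest fold of the 6 genes, 4.79. It was the only one below the WT median, above 42.1% of the list. Its summit lay inside the gene, 20191 bp before the downstream end of the gene span and 737 bp downstream of an inner annotated start. The peak (chr6:110875155-110876518) lay wholly downstream of that start, and rested on 71 fragments (exact Poisson 95% interval 55.5 to 89.6) over a background of 14 fragments. For none of the 6 genes was the end of another protein-coding gene nearer to the summit than the gene's own start or end; for AMD1 the nearest other end, of CDK19, was 59667 bp away.

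**Figure D2:**
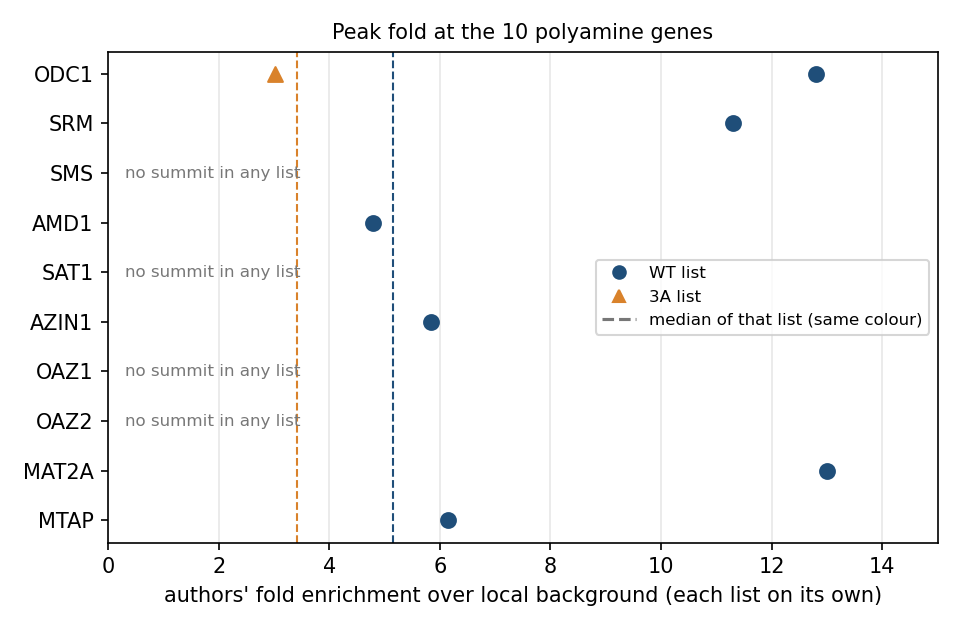
Authors' fold enrichment (horizontal axis, ratio to local background) of every peak with a summit at the 10 polyamine genes (vertical axis); circles are the WT list, the triangle is the 3A list, and dashed lines are the medians of those lists, 5.14 and 3.41. MAT2A, ODC1 and SRM sit between 11.3 and 13.0 in the WT list, MTAP, AZIN1 and AMD1 between 4.79 and 6.14, and 4 genes have no point.

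As a group the 6 WT peaks had a median fold of 8.71, from 4.79 to 13.0, beside a median of 5.17 over the 4074 WT summits at protein-coding genes. Their median width was 1456 bp, beside 820 bp over those summits. The narrowest of the 6, at MTAP with 1029 bp, was still wider than 71.9% of the WT list. Their recovered backgrounds had a median of 14.9 fragments, beside 13.5. The folds of 3 genes were 11.3 or higher and those of the other 3 were 6.14 or lower, and MTAP and SRM had the same background of 8.13.

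**Figure D3:**
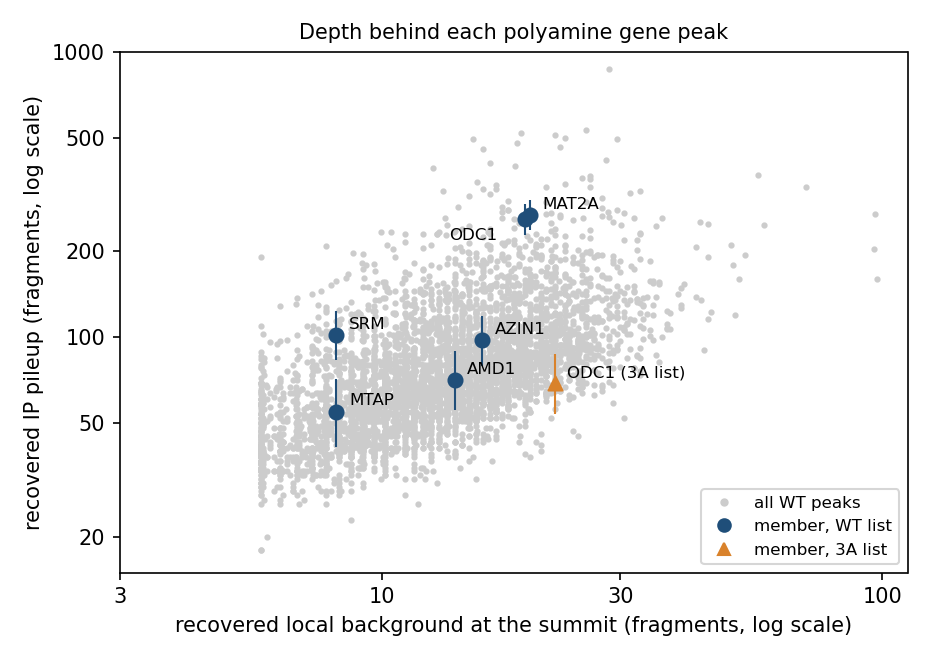
Recovered IP pileup at the summit (vertical axis, fragments, log scale) against recovered local background (horizontal axis, fragments, log scale); grey points are all 4749 WT peaks, circles the 6 polyamine gene peaks of the WT list, the triangle the ODC1 peak of the 3A list, and bars exact Poisson 95% intervals of the pileup. ODC1 and MAT2A lie side by side at 259 and 269 fragments, and the 3A peak at ODC1 has 69 fragments over a background of 22.2.

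All 5 bound genes with an annotated start in the promoter table had their WT summit within 1 kb of one, the farthest being AMD1 at 737 bp. Over WT summits at protein-coding genes outside chromosome 8, 68.6% lay within 1 kb of a start of any protein-coding gene, with a median distance of 291 bp. AZIN1 had no start in that table. The summits were on both sides of the start: upstream at ODC1 and SRM, downstream at MTAP, MAT2A and AMD1.

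**Figure D4:**
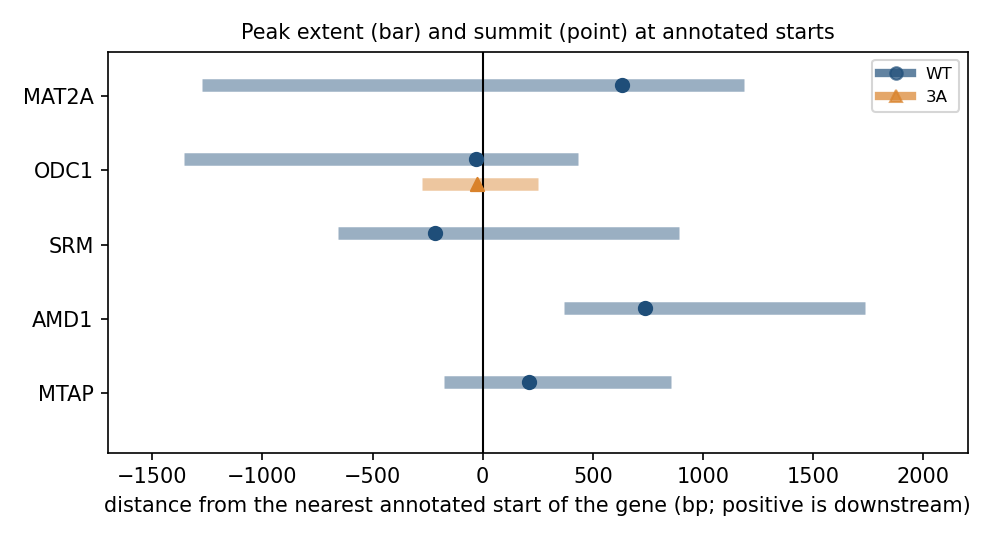
Peak extent (bars) and summit (points) relative to the nearest annotated start of each gene (horizontal axis, bp, positive in the direction of transcription) for the 5 bound genes with an annotated start; circles are the WT list and the triangle the 3A list. The ODC1 summits of both lists lie just upstream of the start, 29 and 27 bp away, and the AMD1 peak lies wholly downstream.

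The promoter table held 12 windows for 9 of the 10 genes, each running from 250 bases before a start to 50 after it. The AMD1 windows that begin at 110874534 and 110874535 are nearly the same sequence, so that promoter is counted more than once among the 12. CACGTG, which reads the same on both strands, was in 2 of the 12: the inner ODC1 window with 2 copies and the SRM window with 1. The same 2 windows were the ones that held a WT summit. CACGTG was in 8.34% of all 22183 promoter windows of protein-coding genes, in 28.0% of the 1311 that held a WT summit and in 7.11% of the rest. At least 2 copies were in 0.847% of all windows and in 4.50% of those with a WT summit. In the 367 windows with both a WT summit and a CACGTG, the median distance between them was 22.0 bp (quartiles 10.0 to 45.5), beside 18 bp at SRM, and at ODC1 a summit inside the motif.

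Other E-box letters were also searched for, and with only 12 windows their counts were near the shares of all windows. CACGCG, or CGCGTG on the other strand, was found only in the outer ODC1 window. The 2 matches there, 1 per strand, overlap without covering the same bases, at 10448529 to 10448534 and 10448531 to 10448536. They were 488 and 490 bp from the WT summit. CACGCG or CGCGTG was in 14.3% of all windows and 38.7% of those with a WT summit. CATGTG, or CACATG on the other strand, was in none of the 12 windows and in 8.93% of all windows. The MAT2A, AMD1 and MTAP windows held none of the 3 motifs, but their summits lay outside the windows, so the sequence under those summits was not analysed here.

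The windows of bound and unbound genes overlapped in base composition. GC content was 79.0 and 80.7% in the ODC1 windows, 82.0% at SRM, 71.0% at MAT2A, 65.3 to 68.3% at AMD1 and 53.0% at MTAP. Among genes without a summit it was 73.3% at SMS, 73.0% at OAZ1, 69.7% at OAZ2 and 66.0% at SAT1. The median over all windows was 62.3%, and over windows with a WT summit 68.7%. OAZ1 and SMS thus had windows more GC-rich than MAT2A, AMD1 or MTAP and had no peak.

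The 4 genes without a summit were not just outside the 5 kb limit. The nearest WT summit was 33221 bp from OAZ1, 115741 bp from SAT1, 122600 bp from OAZ2 and 1672595 bp from SMS. The nearest 3A summit was 32433 bp from OAZ1 and farther from the others. SMS and SAT1 are on chromosome X, where the 7A list had no peak.

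A further 27 genes of polyamine uptake, breakdown, ornithine supply, antizyme and ODC1 regulation, hypusination and the methionine cycle give the wider pathway. Of these 11 (40.7%) had a WT summit, 3 (11.1%) a 3A summit and none a 7A summit, beside the 24.0%, 4.85% and 0.227% of all genes given above. Hypusination, in which spermidine is used to modify the translation factor eIF5A, had 3 of 4 genes with a WT summit. EIF5A itself had a WT fold of 17.1, at rank 42 above every polyamine gene, 67 bp upstream of an annotated start and with no 3A peak. EIF5A2 had a fold of 5.12 and DOHH, the second hypusination enzyme, 3.78, while DHPS, the first, had no summit.

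Transport genes had a WT summit in 3 of 5 cases (60.0%), beside 24.0% of all genes. SLC3A2, the heavy chain of amino acid exchangers, had 2 WT peaks with folds of 7.77 and 5.16, each overlapped by a 3A peak. The 3A folds were 2.08 and 3.01, with summits 356 and 62 bp apart. The 3A summit of fold 2.08 was 345 bp outside the gene, upstream of its annotated start. SLC7A1, a carrier of arginine and ornithine, had a WT fold of 6.91, and ATP13A3, a polyamine transporter, 4.49, neither with a 3A peak. The SLC7A1 summit was 648 bp downstream of its annotated start. That of ATP13A3 was inside the gene span but 18484 bp upstream of its only start in the promoter table. Of the methionine cycle and salvage genes 3 of 8 (37.5%) had a WT summit, beside the same 24.0%. These include ENOPH1, whose summits were outside the gene and nearer to another gene, as given below. AHCY, which hydrolyses S-adenosylhomocysteine, was at 12.5 in the WT list and at 4.42 in the 3A list (both folds), with summits 86 bp apart. ADI1 of the salvage pathway had 4.74 in the WT list only.

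Some of these summits were nearer to another gene. ENOPH1 of the salvage pathway had WT folds of 9.52 and 4.48 and a 3A fold of 4.37. All 3 summits were outside ENOPH1, upstream of its annotated start, and nearer to an end of HNRNPDL. That HNRNPDL end lies between the summits and ENOPH1. The summits were 1274, 36 and 1280 bp from it, against 1402, 164 and 1408 bp from the nearer end of ENOPH1. PAOX, a polyamine oxidase gene, had a WT fold of 7.77 with the summit 2590 bp outside the gene and 127 bp from an end of MTG1. SMOX, the spermine oxidase gene, had a WT fold of 2.77, above 2.15% of the list. None of the 4 ornithine supply genes (ARG1, ARG2, OAT and AGMAT) and neither OAZ3 nor AZIN2 had a summit.

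The genes whose strongest WT and 3A folds were nearest to those of ODC1, by the distance between log2 folds over these 2 lists, were GNL3, PBRM1 and SEH1L. They were taken from 849 other protein-coding genes with a WT and a 3A summit and no 7A summit. GNL3, which encodes a nucleolar GTPase, and PBRM1, a chromatin remodeller subunit, shared 1 WT summit with a fold of 13.0 and had a 3A fold of 2.98, at a distance of 0.03. SEH1L, a nuclear pore component, had 13.3 and 3.01, at a distance of 0.06.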

How the data were processed

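ChIP-seq with a mouse reference genome gave FLAG-MYC occupancy. Per the submitters' processing notes, MACS2, Bowtie2, cutadapt, Picard and SAMtools were used and hg38, hg19 and mm10 were involved, with no versions or roles. How the 2 IP libraries, the control and the mouse reads entered each list is not given in the sources used here. The deposited fold enrichment is a ratio to local background, and the authors also give −log10 p and −log10 q-values per peak; the deposited score was checked against 10 times the −log10 q and not used further. The depth per library was not used here.

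The summit was the peak start plus the summit offset, counted here from 1. To settle the build, WT summits were set against GRCh38.p14 starts: 63.0% of 4578 were within 1 kb of one, against 3.10 to 3.47% after shifts of 100 or 500 kb. That share leaves out chromosome 8, which the promoter table does not hold. Gene spans came from a RefSeq table, without genes of alternate scaffolds, and all 37 listed symbols matched. Exons, introns and UTRs were not analysed here.

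Pileup n and background b were recovered by taking the fold as (n + 1)/(b + 1) and p as the upper Poisson probability. This gave back the deposited p, to within 0.02 of the change that 1 more fragment makes, for 4749 WT, 845 3A and 63 of 64 7A peaks. In a simulation 1000 of 1000 peaks were recovered. Those peaks were made with the same formulas, so they show only that the formulas can be inverted. Genes were counted and described with no test. The 10 genes, the pathway list and the alternatives were chosen with earlier results of these data known. The text names all 10 genes, every pathway gene with a summit, and any protein-coding gene nearer to a summit. It also names the 3 genes nearest to the pattern of the strongest gene in both lists. Non-coding genes were not considered as neighbours. Of the 16 pathway genes without a summit, 7 are named as well, chosen after their values were seen. The software was matplotlib 3.10.9, pandas 2.3.3, scipy 1.17.1 and numpy 2.4.6 under Python 3.11.15.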

Additional observations from a re-analysis of the deposited data

How the results depend on the processing

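The same 6 genes had a WT summit, only ODC1 had a 3A summit and none had a 7A summit under 6 alternatives: windows of 1 kb and 10 kb, a −log10 q of at least 5 or 10, any base of the peak in place of the summit, and each summit given only to the gene with the closest end. Of the 27 pathway genes, 9 to 11 kept a WT summit and 2 or 3 a 3A summit under these 6. The share of all protein-coding genes moved as well. For WT it ran from 18.5% with the closest end to 26.9% with the window of 10 kb. For 3A it ran from 3.43% with a −log10 q of at least 10 to 5.75% with the window of 10 kb. A WT summit was lost by PAOX with the window of 1 kb, by SMOX with the stricter −log10 q minimum of 10, and by PAOX and ENOPH1 with the closest end. With summits within 1 kb of an annotated start, an alternative chosen after seeing the data, AZIN1 could not be counted for lack of a start, 5 genes remained, and the median WT fold was 11.3 in place of 8.71, from fewer genes. No paired analysis was possible because each protein has 1 peak list, so no replicate could be left out either. The lists do not give library depth, which limits what the lack of a 3A or 7A peak can show.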

Other observations

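Around the polyamine genes, other summits within 100 kb were mostly at other genes. AZIN1 had a further WT peak with a fold of 8.15, 18637 bp beyond the lower-coordinate end of the gene. A 3A peak with a fold of 5.08 overlapped this further peak, with the summits 1183 bp apart. The WT peak of fold 5.84, at the higher-coordinate end, was lower in fold and had no overlapping 3A peak. The strand of AZIN1 is not given here, so neither end is named as its start. Near AMD1, WT summits were 147 bp from an end of GTF3C6 (fold 7.0, with a 3A fold of 4.15) and 38 bp from an end of RPF2, a ribosome assembly gene (8.57, with no 3A peak), both above the fold of 4.79 at AMD1. Near OAZ1, which had no summit, WT peaks were 64 bp from an end of PLEKHJ1 (fold 5.57) and 38 bp from an end of LSM7 (4.29), and a 3A peak of fold 2.61 overlapped the former with the summits 788 bp apart. Near MAT2A, 3 further WT peaks had folds of 4.36, 6.41 and 4.79, all below the 13.0 at MAT2A, and none had a 3A peak; the one of 6.41 was 1 bp from an end of TMEM150A. The 3A summit nearest to SRM was 237 bp from an end of TARDBP, with a fold of 3.50 and no WT peak there. These neighbours were looked up after the peaks at the 10 genes had been seen.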
